A study of Mus musculus with 4 samples.

Results

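Calcineurin is a calcium-activated protein phosphatase, and the genes described here encode its subunits, the small regulators that bind it and the transcription factors it acts on. The members were chosen by gene symbol and not by a cut on their values, though earlier results of these data were known. They were Ppp3ca, Ppp3cb, Ppp3r1, Rcan1, Rcan2 and Nfatc1 to Nfatc4. FPKM (sequenced fragments scaled to transcript length and library size) was summed over the transcripts of each symbol. Of the 9 symbols, 8 were listed in the deposited files, with 20 of the 36231 transcripts and among 13824 gene symbols. Nfatc2 was not listed and was not analysed here. The libraries came from C2C12 cells, a mouse myoblast line that fuses into myotubes when serum is lowered. All 4 libraries were from cells given 30 nM siRNA with Lipofectamine and differentiated over 48 h in medium holding 2% horse serum. The siRNA was scrambled in 2 libraries and directed against Mef2a in the other 2 (siMEF2A). The labels do not say whether replicates were separate cultures, so the spread behind each p-value may be technical only. The comparison asks what silencing of MEF2A, a transcription factor of muscle, does to transcript levels during differentiation.

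A rise in cytosolic calcium, sensed in part by the regulatory B subunit, activates the catalytic A subunit of calcineurin. The active phosphatase removes phosphates from NFAT proteins, which then enter the nucleus, and kinases such as GSK3 and the DYRK family send them out again. In skeletal muscle the pathway is known for its part in slow-fibre gene programmes and in myotube growth, where NFAT and MEF2 factors can act on the same genes. RCAN proteins bind calcineurin and can inhibit it, and a short RCAN1 form is made from an internal promoter that NFAT activates, so Rcan1 is widely used as a readout of NFAT activity.

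In these libraries no listed member passed the test in either direction. Of the 6 members with a mean of at least 1 FPKM, 0 rose and 0 fell in siMEF2A (limma, adjusted p under 0.05), beside 1.73% of the 11824 genes tested in either direction (0.406% higher, 1.32% lower). At an unadjusted p under 0.05 there was 1 member, Ppp3ca, beside 6.39% of all genes tested in either direction and 3.09% higher. The median difference of the 6 members was 0.12 on the log2(FPKM + 1) scale, and that of all genes tested was 0.045. Rcan1, summed over its transcripts, was nearly level between the groups, at 103% of its scrambled mean. The form from the internal promoter, the one that NFAT activates, was at 79.1% of scrambled, with overlapping groups. That form was at 4.14 and 1.72 FPKM with scrambled siRNA and at 2.57 and 2.07 with siMEF2A. The level sum is therefore not a measure of the internal form, whose scrambled replicates lay far apart. In bulk RNA, fewer cells expressing a gene and less RNA per cell cannot be told apart.

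The series-wide checks were as follows. Mef2a itself was at 46.5% of scrambled (log2 difference -1.05, SE 0.15, limma adjusted p = 3.35e-05). Of 9 skeletal muscle markers 8 were listed, all with a mean of at least 1 FPKM, and their sum was 721 to 802 FPKM in scrambled and 425 to 478 FPKM in siMEF2A. The muscle marker not listed was Acta1. None of the markers of endothelial cells, immune cells or neurons was listed. The rule for listing is not given, so a gene that was not listed may still be expressed. Of the 4 adipocyte markers 1 was listed (Fabp4, at most 2.30 FPKM), and of the 4 cardiomyocyte markers 2 were listed (Nkx2-5 and Tnni3, summing to at most 2.91 FPKM). Depth relative to scrambled replicate 1, read from the commonest ratio of low FPKM values, was 0.847 to 1.05, and absolute depth was unknown. That commonest ratio was shared by only 7 to 14 of 600 genes, so the relative depths are uncertain.

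**Figure D1:**
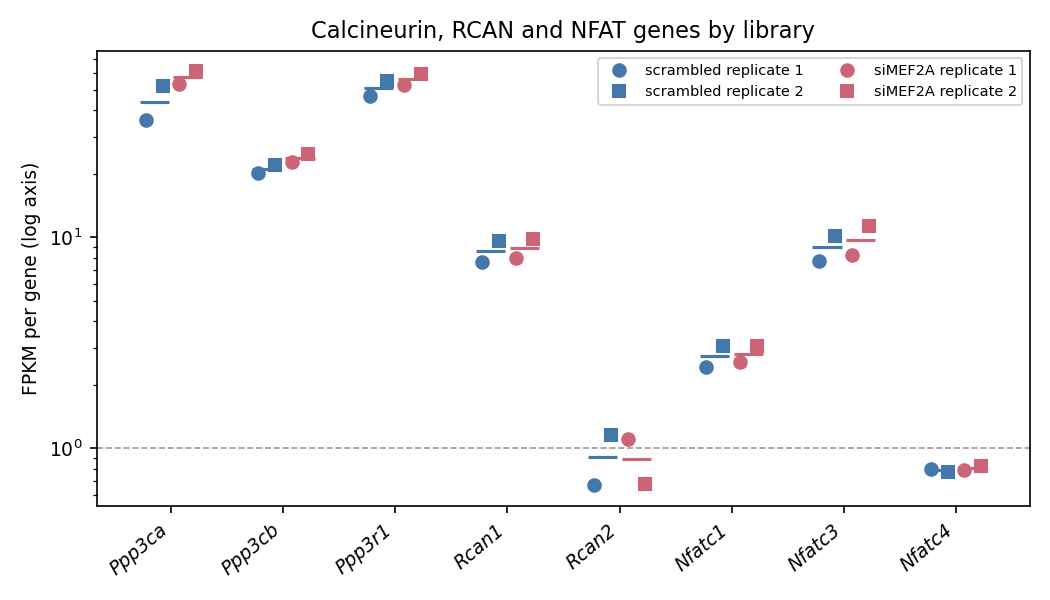
FPKM per gene (vertical log axis) of the 8 listed members in each of the 4 libraries, with bars at the group means and a dashed line at 1 FPKM. The subunit genes lie highest and Rcan2 and Nfatc4 lie near or below the line, and the 2 groups sit close together for each gene.

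The levels in FPKM, which is per length and can be compared between genes, fell into separate tiers. Ppp3r1 and Ppp3ca were highest, with means over the 4 libraries of 53.5 and 50.6 FPKM and overlapping ranges. They stood above 85.9% and 85.1% of the genes tested. Ppp3cb followed at a mean of 22.4 FPKM, with no library overlapping the members above or below it. Nfatc3 (9.37 FPKM) and Rcan1 (8.77 FPKM) overlapped each other, near the middle of the genes tested. Nfatc1 was lower, at a mean of 2.78 FPKM. Rcan2 and Nfatc4 overlapped each other, between 0.670 and 1.16 FPKM, and their means were under the minimum for a test.

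Ppp3ca encodes the alpha form of the catalytic A subunit (ENSMUSG00000028161, chromosome 3, 136670124 to 136937727, plus strand, mm10). It was at 35.9 and 52.0 FPKM in scrambled replicates 1 and 2, and at 53.4 and 61.1 in siMEF2A replicates 1 and 2. Both siMEF2A libraries were above both scrambled ones, but scrambled replicate 2 and siMEF2A replicate 1 lay close together and scrambled replicate 1 was low. The mean was 44.0 ± 11.4 FPKM with scrambled siRNA and 57.3 ± 5.45 with siMEF2A (SD, n = 2 each), or 130% of scrambled. The log2 difference of 0.39 (SE 0.17, 95% interval 0.049 to 0.74) missed the threshold (limma adjusted p = 0.573, unadjusted p = 0.0268). Without scrambled replicate 2 the difference was 0.66 and passed (limma adjusted p = 0.0368), and without scrambled replicate 1 it was 0.13 (limma adjusted p = 1.0).

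Ppp3cb, the gene of the beta form of the A subunit (ENSMUSG00000021816, chromosome 14, 20499364 to 20546573, minus strand), was steadier. It was at 20.2 and 22.1 FPKM with scrambled siRNA and at 22.6 and 24.9 with siMEF2A. The groups did not overlap, but the highest scrambled and the lowest siMEF2A library were closer to each other than the replicates of either group. Ppp3cb was at 112% of scrambled, with a log2 difference of 0.16 (95% interval -0.15 to 0.47, limma adjusted p = 1.0). Ppp3ca and Ppp3cb were the 2 of 6 members whose groups did not overlap, both higher in siMEF2A, beside 28.0% of all genes tested without overlap (18.8% higher, 9.14% lower).

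Ppp3r1 encodes the calcium-binding regulatory B subunit (ENSMUSG00000033953, chromosome 11, 17159263 to 17200375, plus strand). Its values were 46.9 and 55.1 FPKM with scrambled siRNA and 52.5 and 59.6 with siMEF2A, so the groups overlapped. The log2 difference was 0.14 (95% interval -0.19 to 0.46, limma adjusted p = 1.0). The ratio of Ppp3r1 to the sum of Ppp3ca and Ppp3cb was 0.836 and 0.743 in scrambled and 0.690 and 0.693 in siMEF2A. That ratio is a description of RNA levels, with no test.

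The A subunit genes were each listed with transcripts that differ at the same place, a cassette exon of 30 bases in the coding region, the last but one coding exon where present. The exon is shown for both genes because it is the sole coding difference between the 2 listed forms of Ppp3ca, which has 1563 coding bases with it (ENSMUST00000056758) and 1533 without it (ENSMUST00000070198). The sequences are those of GENCODE transcripts on mm10, read along the gene, at chr3:136932011-136932040 (plus strand) and chr14:20503247-20503276 (minus strand), and capitals mark the positions at which they differ.
Ppp3ca cassette exon: cTacTgttgaggctattgaggctgaTGaag
Ppp3cb cassette exon: cCacAgttgaggctattgaggctgaAAaag
They were identical at 26 of 30 bases (86.7%).

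**Figure D2:**
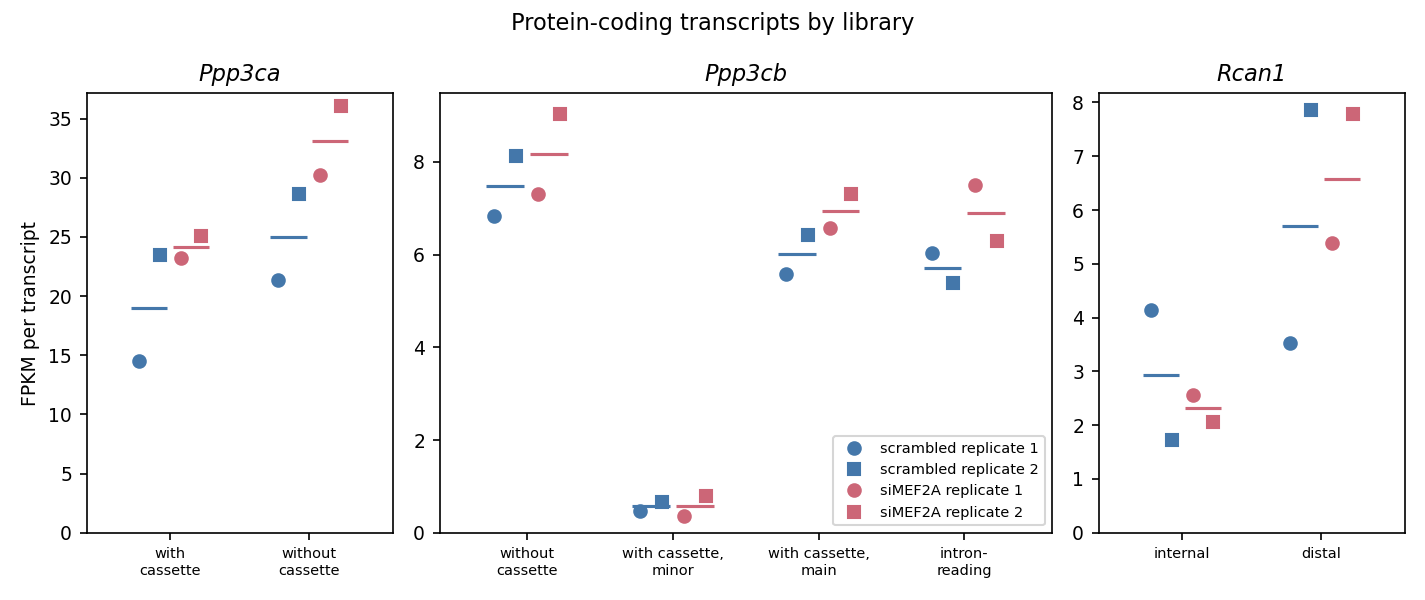
FPKM of the protein-coding transcripts listed for Ppp3ca, Ppp3cb and Rcan1 (vertical axis, linear) in each of the 4 libraries, with bars at the group means. The Rcan1 forms cross over between scrambled replicates 1 and 2. The main cassette and intron-reading forms of Ppp3cb also change order between replicates of each group, by less, while the Ppp3ca forms keep their order.

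The form of Ppp3ca with the cassette exon made up 40.5% and 45.1% of the gene's FPKM in scrambled and 43.4% and 41.0% in siMEF2A. The shares overlapped between groups. The form with the exon had a log2 difference of 0.37 (95% interval -0.14 to 0.87, limma adjusted p = 1.0 over transcripts). The form without it had one of 0.40 (95% interval -0.027 to 0.83, limma adjusted p = 0.926). Neither passed, and without scrambled replicate 1 the differences were 0.038 and 0.20, each with a limma adjusted p of 1.0. With a library left out in turn they ran up to 0.70 and 0.61, both without scrambled replicate 2. The 2 forms also differ in the annotated length of their untranslated ends, so their separation does not rest on the cassette alone.

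In Ppp3cb, the forms with the cassette exon (ENSMUST00000161445 and ENSMUST00000159027) made up 46.9% and 46.6% of the 3 forms that reach the last coding exon in scrambled, and 48.7% and 47.2% in siMEF2A. The shares did not overlap between groups, within a narrow range over all libraries. The highest scrambled share (46.9%) and the lowest siMEF2A share (47.2%) were closer to each other than the siMEF2A replicates were. The form without the exon has only 3 bases that ENSMUST00000161445 lacks, and 0 that ENSMUST00000159027 lacks. The split is therefore uncertain, and the shares were not tested. Most of the cassette form was ENSMUST00000161445, at 5.58 and 6.43 FPKM with scrambled siRNA and 6.57 and 7.31 with siMEF2A. ENSMUST00000159027, whose coding region is 3 bases longer, stayed between 0.361 and 0.787 FPKM.

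A further form of Ppp3cb (ENSMUST00000161989) does not splice to the last coding exon. Its coding region runs on past the splice donor into the following intron, the structure known for the CnAβ1 isoform, in which a different C-terminal end takes the place of the autoinhibitory one. The coding stretch beyond the donor is shown because it is what sets this form apart, at chr14:20508502-20508623 on the minus strand, 122 bases, with no capitals.
Ppp3cb intron-reading form: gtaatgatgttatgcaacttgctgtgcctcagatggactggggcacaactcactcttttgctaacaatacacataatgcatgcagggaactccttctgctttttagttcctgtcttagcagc
This form was at 6.03 and 5.39 FPKM with scrambled siRNA and at 7.50 and 6.29 with siMEF2A, near the levels of the main forms with and without the cassette exon. It made up 31.9% and 26.2% of the 4 protein-coding forms in scrambled and 34.5% and 26.9% in siMEF2A. The replicates differed more in this share than the groups did. Its log2 difference was 0.23 (95% interval -0.15 to 0.61, limma adjusted p = 1.0).

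Rcan1 encodes a calcineurin-binding regulator (ENSMUSG00000022951, chromosome 16, 92391953 to 92470867, minus strand). Summed over its 2 listed transcripts it was at 7.68 and 9.58 FPKM with scrambled siRNA and at 7.95 and 9.85 with siMEF2A. The groups overlapped almost entirely, with replicate 1 low and replicate 2 high in each. The means were 8.63 ± 1.34 and 8.90 ± 1.34 FPKM (SD, n = 2 each). The log2 difference was 0.041 (SE 0.16, 95% interval -0.28 to 0.36, limma adjusted p = 1.0).

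The listed Rcan1 transcripts start at different promoters and have different first coding exons. The distal form (ENSMUST00000060005) starts farther upstream, and the internal form (ENSMUST00000023672) starts within the gene. The 250 bases before each RefSeq start (build GRCm38.p6, minus strand) are shown because the internal promoter is the one known to respond to NFAT. Capitals mark the NFAT core motif GGAAA and the AP-1 motif TGANTCA, each searched on both strands, and their matches did not overlap one another. The windows are chr16:92466170-92466419 for the distal promoter and chr16:92400079-92400328 for the internal one.
Distal promoter: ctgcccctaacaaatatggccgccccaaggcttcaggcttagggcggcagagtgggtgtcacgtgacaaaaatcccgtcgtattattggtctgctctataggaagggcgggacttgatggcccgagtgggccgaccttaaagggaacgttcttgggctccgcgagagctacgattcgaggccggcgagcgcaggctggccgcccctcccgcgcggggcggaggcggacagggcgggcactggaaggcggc
Internal promoter: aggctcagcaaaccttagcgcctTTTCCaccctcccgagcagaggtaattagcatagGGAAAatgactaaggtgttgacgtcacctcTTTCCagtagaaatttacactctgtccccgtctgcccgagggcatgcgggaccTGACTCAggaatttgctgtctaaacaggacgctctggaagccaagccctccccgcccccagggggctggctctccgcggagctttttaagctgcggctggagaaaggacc
The internal window held 3 matches to GGAAA and 1 to TGANTCA, and the distal window held 0 of either. Of 32851 RefSeq windows of the same length, 55.6% held at least 1 GGAAA, 6.39% held 3 or more, and 6.75% held a TGANTCA. The MEF2 consensus motif was in neither Rcan1 window and in 0.508% of all windows. A match describes the letters of the window alone.

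The coding parts of the first exons are shown with the start codon in capitals, since the proteins differ in this stretch and share the remaining 507 coding bases. They lie at chr16:92465833-92466078 (246 bases) and chr16:92399896-92399982 (87 bases). The exon of the same length in Rcan2 (ENSMUST00000044792), at chr17:43953451-43953537 on the plus strand, is given for comparison.
Rcan1 distal form: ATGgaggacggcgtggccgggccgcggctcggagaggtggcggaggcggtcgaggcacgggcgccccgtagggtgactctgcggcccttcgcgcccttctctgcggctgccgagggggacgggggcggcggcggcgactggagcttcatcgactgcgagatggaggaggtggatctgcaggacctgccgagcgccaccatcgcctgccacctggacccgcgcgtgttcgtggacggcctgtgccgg
Rcan1 internal form: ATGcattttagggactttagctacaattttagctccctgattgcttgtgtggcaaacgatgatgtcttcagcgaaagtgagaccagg
Rcan2 short-exon form: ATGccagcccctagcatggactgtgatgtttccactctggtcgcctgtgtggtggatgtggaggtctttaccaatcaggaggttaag
The short exons of Rcan1 and Rcan2 have the same length and were identical at 44 of 87 bases (50.6%), compared without gaps.

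The internal form of Rcan1 was at 4.14 and 1.72 FPKM in scrambled replicates 1 and 2, and at 2.57 and 2.07 in siMEF2A replicates 1 and 2. Scrambled replicate 1 was the highest library and scrambled replicate 2 the lowest, with both siMEF2A libraries between them. The distal form was at 3.54 and 7.86 FPKM with scrambled siRNA and at 5.39 and 7.79 with siMEF2A, again with the siMEF2A libraries between the scrambled ones. The internal form thus made up 53.9% of the gene in scrambled replicate 1 and 18.0%, 32.3% and 21.0% in the other libraries. The log2 differences were -0.18 (95% interval -0.84 to 0.49) for the internal form and 0.24 (95% interval -0.46 to 0.94) for the distal form, each with a limma adjusted p of 1.0. Without scrambled replicate 1 both signs turned, to 0.28 for the internal and -0.24 for the distal form. The transcripts share 2008 bases, 91.7% of the internal form, so their separation rests on 182 and 316 bases of their own, and the sum of both varied less than either.

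By the centred log2(FPKM + 1) profile over the 4 libraries, the genes most like Rcan1 were Sipa1l1, Upf2, Lrrfip2, Furin and Mia3, at Euclidean distances of 0.0031 to 0.0097. This likeness is over 4 values and is weak as a description: 859 genes lay within a distance of 0.1.

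Rcan2 encodes a relative of RCAN1 (ENSMUSG00000039601, chromosome 17, 43801351 to 44039516, plus strand). It was at 0.670 and 1.16 FPKM with scrambled siRNA and at 1.11 and 0.677 with siMEF2A, with a mean under the minimum, and each group held a high and a low library. ENSMUST00000177857, which has the short first coding exon shown above, showed the same alternation, at 7.36e-07 and 0.578 FPKM with scrambled siRNA and at 0.339 and 2.58e-04 with siMEF2A. The other form with that exon, ENSMUST00000044792, was at 0.195 and 0.288 FPKM with scrambled siRNA and 0.386 and 0.418 with siMEF2A. Summed, the 2 forms with the short exon were at 0.195 and 0.866 FPKM with scrambled siRNA and 0.725 and 0.418 with siMEF2A, so the groups overlapped. Rcan1 was 7.20 to 14.6 times as high as Rcan2 over the 4 libraries.

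Among the NFAT factors, Nfatc3 was the highest of those listed. NFATc3 is a factor of skeletal muscle cells known from myoblasts onward (ENSMUSG00000031902, chromosome 8, 106058840 to 106130537, plus strand). It was at 7.75 and 10.2 FPKM with scrambled siRNA and at 8.25 and 11.3 with siMEF2A, with overlapping groups and 1 listed transcript. Its log2 difference was 0.11 (95% interval -0.22 to 0.44, limma adjusted p = 1.0). Within each group replicate 2 was above replicate 1 by more than that, by 0.35 in scrambled and 0.41 in siMEF2A.

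Nfatc1 encodes a factor linked to slow fibres (ENSMUSG00000033016, chromosome 18, 80606205 to 80713071, minus strand). It was at 2.42 and 3.06 FPKM with scrambled siRNA and 2.55 and 3.06 with siMEF2A, so the groups overlapped. The log2 difference was 0.028 (95% interval -0.28 to 0.33, limma adjusted p = 1.0). Transcripts from the downstream start (ENSMUST00000035800 and ENSMUST00000167977) made up 77.9% and 73.7% of the gene in scrambled and 70.6% and 69.7% in siMEF2A. These shares did not overlap between groups and were not tested. ENSMUST00000167977 shares 90.7% of its bases with the transcript from the upstream start, so the split is uncertain at such low levels. The transcript from the upstream start, ENSMUST00000078049, was at 0.537 and 0.807 FPKM with scrambled siRNA and 0.752 and 0.928 with siMEF2A, overlapping and under the minimum. ENSMUST00000167977, the form with the longest coding region, had a log2 difference of -0.10 (95% interval -0.57 to 0.37, limma adjusted p = 1.0).

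Nfatc4 (ENSMUSG00000023411, chromosome 14, 55823144 to 55833943, plus strand) was the lowest listed factor, at 0.803 and 0.776 FPKM with scrambled siRNA and at 0.792 and 0.829 with siMEF2A. The groups overlapped within a narrow range. ENSMUST00000172271 made up 72.2% and 76.3% of it in scrambled and 80.5% and 90.9% in siMEF2A. The other form, ENSMUST00000024179, was at 0.223 and 0.184 FPKM with scrambled siRNA and 0.155 and 0.0752 with siMEF2A. It is near the floor and shares 92.5% of its bases with the first, so the split is uncertain, and it was not tested. Tested without a minimum, Nfatc4 differed by 0.017 and Rcan2 by -0.016 on the log2 scale, each with a limma adjusted p of 1.0. Nfatc3 was 3.20 to 3.69 times as high as Nfatc1 and 9.64 to 13.6 times as high as Nfatc4 over the 4 libraries.

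Over the 20 listed transcripts of the members, 11 had a mean of at least 1 FPKM. Of these, 0 passed at the transcript level (limma), beside 0.225% of the 23600 transcripts tested (0.0297% higher), and 0 had an unadjusted p under 0.05, beside 5.67%. In 3 of the 11 (Ppp3ca without the cassette exon, the main cassette form of Ppp3cb and its intron-reading form) both siMEF2A libraries were above both scrambled ones, and in 0 they were below, beside 29.4% of all transcripts tested without overlap (17.4% higher, 12.0% lower).

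**Figure D3:**
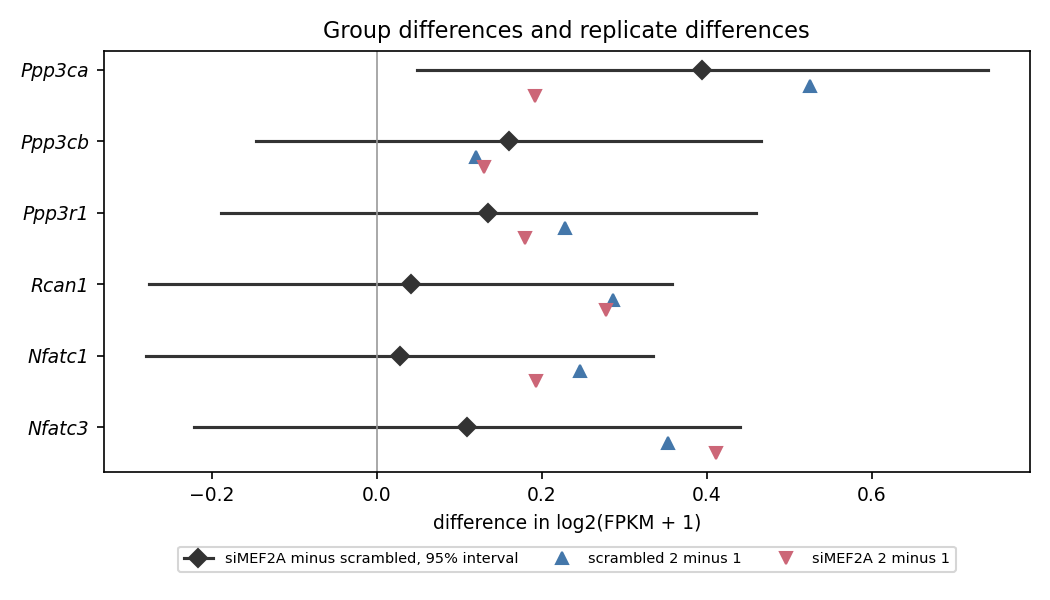
Differences in log2(FPKM + 1) for the 6 tested members: diamonds with 95% intervals give siMEF2A minus scrambled, and triangles give replicate 2 minus replicate 1 within each group. The interval spans 0 for each gene but Ppp3ca, and for 5 of the 6 genes at least 1 replicate difference is larger than the group difference.

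For each tested member but Ppp3cb, the log2 difference between replicates in at least 1 group was larger than that between the group means. In all 6 tested members replicate 2 was above replicate 1 in both groups, beside 49.5% of the genes tested. The median of replicate 2 minus replicate 1 over the 6 members was 0.27 in scrambled and 0.19 in siMEF2A, and over all genes tested it was 0.092 and 0.069. For Ppp3ca the scrambled replicates differed by 0.53, more than its group difference of 0.39. The file columns number the libraries differently from the sample titles, whose numbers are used here, so replicates with the same number in the 2 groups may have nothing in common. What separates the replicates is not given in the labels, and its part in the members' values was not tested.

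Of the 3 tested relatives outside the members, 0 passed. Ppp3cc, the gene of the third catalytic form, was at a mean of 5.31 FPKM with scrambled siRNA and 5.30 with siMEF2A. Rcan3 was at 6.49 and 7.07 FPKM. Nfat5, the relative that responds to osmotic stress and lacks the calcineurin docking region, was at 3.86 and 7.03 FPKM with scrambled siRNA and 7.04 and 6.81 with siMEF2A. Only scrambled replicate 1 was low for Nfat5 among the 4 libraries (limma adjusted p = 0.837).

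Lists of other pathway genes gave 2 higher and 9 lower calls among 62 genes tested (limma), counting each gene once, with a median log2 difference of 0.029. The lower calls include Mef2a, the target of the siRNA. Of all genes tested, 0.406% were called higher and 1.32% lower, and 6.39% had an unadjusted p under 0.05 (limma). Those shares are the background for each list below. These lists were written with earlier results of these libraries known, so their counts are no independent evidence of direction.

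**Figure D4:**
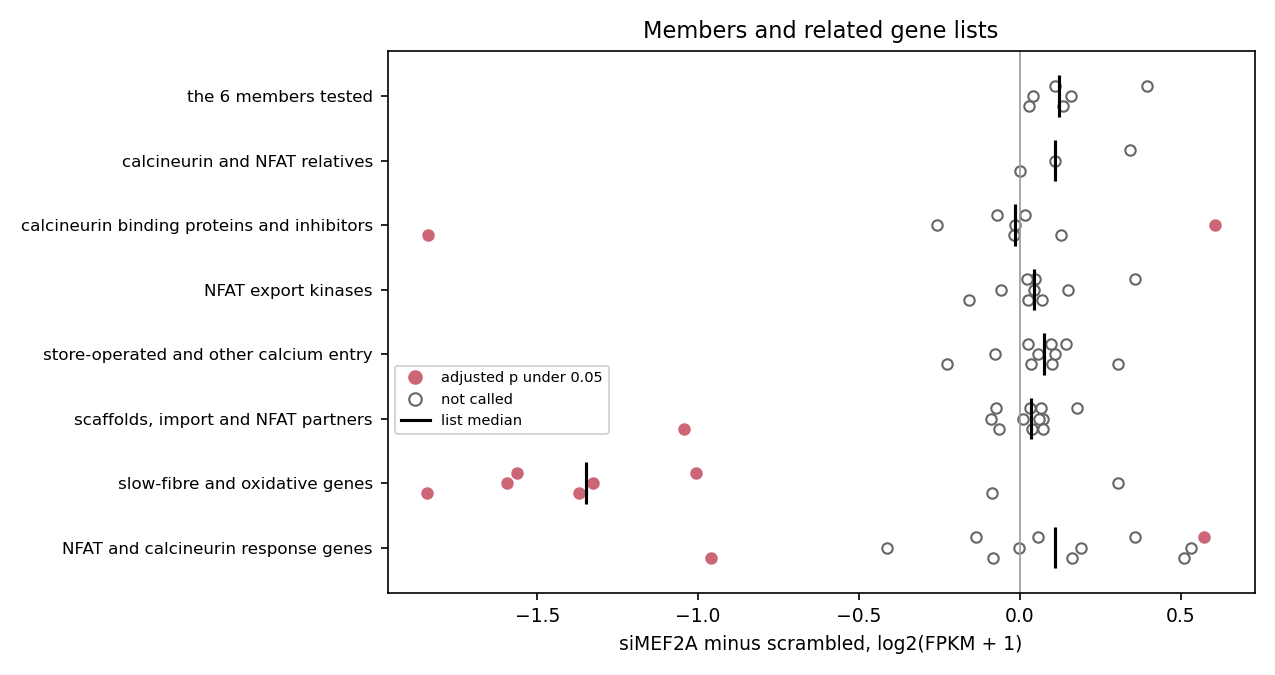
Log2 difference of each tested gene (siMEF2A minus scrambled, horizontal axis) for the members and 7 lists of related genes, with filled points for an adjusted p under 0.05 and a bar at each list's median. Calls lie mostly in the list of slow-fibre and oxidative genes, and no member is filled.

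Upstream of calcineurin, 0 of 10 tested genes of calcium entry and release passed. Orai1, the pore subunit of the store-operated channel, was at 4.30 ± 0.308 FPKM with scrambled siRNA and 3.53 ± 0.0181 with siMEF2A (limma adjusted p = 1.0). Homer3, a scaffold that binds calcium channels, was at 125% of scrambled (limma adjusted p = 0.774, unadjusted p = 0.0494). The other named genes of this list were Orai3 at 109% and Itpr2, an inositol trisphosphate receptor, at 118% of scrambled.

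Among the 8 tested genes of a list of calcineurin-binding proteins, inhibitors and related proteins, 1 rose and 1 fell. Myoz2, which encodes calsarcin-1, a Z-disc protein that tethers calcineurin, was at 12.4 and 11.9 FPKM with scrambled siRNA and at 3.04 and 2.35 with siMEF2A. The groups were far apart beside the distance between replicates (log2 difference -1.84, SE 0.15, limma adjusted p = 4.77e-10). Lmcd1, a LIM protein reported to raise calcineurin signalling, was at 1.76 and 2.71 FPKM with scrambled siRNA and at 3.88 and 3.87 with siMEF2A (log2 difference 0.61, SE 0.16, limma adjusted p = 0.0318). Lmcd1 missed the threshold with any of the 3 alternative scalings (limma adjusted p = 0.0965 to 0.155), without scrambled replicate 1 (1.0), without siMEF2A replicate 1 (0.0808) and without siMEF2A replicate 2 (0.0736). The call was also lost without a filter on low values (0.0869), without an intensity trend (0.0653) and with small RNA symbols kept (0.0583). Fbxo32, the ubiquitin ligase atrogin-1, was at 82.6% of scrambled, Chp1 at 109%, the inhibitor gene Cabin1 at 98.4% and Ppia, the gene of cyclophilin A, at 95.8%, and none of these 4 passed.

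Of 9 kinases that phosphorylate NFAT or act beside it, 0 passed and 1 had an unadjusted p under 0.05. That was Mapk14, the gene of p38 alpha, at 15.9 and 19.0 FPKM with scrambled siRNA and 21.6 and 23.4 with siMEF2A (limma adjusted p = 0.550). Gsk3b was at 112%, Mapk9 at 105% and Dyrk2 at 88.2% of scrambled, each with overlapping groups. Of 12 tested partners and cofactors of NFAT, the one call was the targeted gene Mef2a, and Mef2d, Fosl1, Fosl2 and Jund were at 93.9% to 114% of scrambled.

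Downstream, slow-fibre and oxidative genes linked to calcineurin fell in 6 of 8 tested cases and rose in 0, with a median log2 difference of -1.35. The slow troponin genes were among them. Tnni1 was at 246 and 231 FPKM with scrambled siRNA and at 85.4 and 71.6 with siMEF2A (log2 difference -1.59, limma adjusted p = 1.64e-07). Tnnc1 was at 39.8% and Tnnt1 at 49.6% of scrambled (limma adjusted p = 1.77e-05 and 2.29e-04). The other 3 were Mb, Casq2 and Cox6a2, at 24.6%, 36.3% and 28.2% of scrambled. Atp2a2, the slow-type calcium pump, was at 93.6%, and Ppargc1a, a coactivator of oxidative genes, was at 131% with a limma adjusted p of 0.795. The summed FPKM of the skeletal muscle markers was also lower in siMEF2A, as given above. Such a sum is weighted to the most abundant markers, with a single gene reaching 248 FPKM. What part a general fall of muscle genes has in this list was not tested.

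Response genes described for NFAT or calcineurin in muscle and other cells were called in both directions, 1 higher and 1 lower of 12 tested, with a median log2 difference of 0.11. Igf2, a growth factor of differentiating myoblasts, was at 12.8 and 14.4 FPKM with scrambled siRNA and at 5.40 and 7.80 with siMEF2A (log2 difference -0.96, limma adjusted p = 2.03e-04). Egr2, a zinc finger factor, was at 1.10 and 0.796 FPKM with scrambled siRNA and at 1.76 and 2.02 with siMEF2A (limma adjusted p = 0.0340). Egr2 missed the threshold with any of the 3 alternative scalings (limma adjusted p = 0.118 to 0.154), without scrambled replicate 2 (0.340), without siMEF2A replicate 2 (0.144), without a trend (0.0698), with the small RNA symbols left in (0.0583) and with 0.1 added in place of 1 (0.0528). Cxcl12, a chemokine gene, was at 145% and Adamts1, a matrix protease gene, at 144% of scrambled, both without overlap and neither past the threshold (limma adjusted p = 0.111 and 0.129). Bdnf was at 130% and the chemokine gene Ccl2 at 75.5% of scrambled, with adjusted p of 0.556 and 0.598 in limma.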

How the data were processed

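The authors deposited FPKM for each Ensembl transcript and library, per the file headers. CASAVA, Trimmomatic, TopHat, Bowtie, Cufflinks and build mm10 are named without versions, per the submitters' processing notes. The sources used here do not give the annotation, settings, use of strand, scaling between libraries or rule for listing transcripts. FPKM holds no read counts, so no counting interval was computed.

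Here, FPKM was summed per symbol, 26 symbols beginning with Mir, Snor or Scarna were set aside, and the test covered 11824 genes averaging 1 FPKM or more. Values of log2(FPKM + 1), which understate changes of low genes, entered limma 3.58.1 under R 4.3.3 (intensity trend, two-sided, Benjamini-Hochberg over all genes tested, called under 0.05). The fit had 2 residual and 29 prior degrees of freedom. Transcripts with a mean of at least 1 FPKM were fitted in the same way, with 6.22 prior degrees of freedom. Differences are siMEF2A minus scrambled. Structures and exon sequences came from GENCODE M21 (97.3% of transcripts matched) and promoters from RefSeq's table for GRCm38.p6. The test was checked on simulated libraries for siMEF2A against scrambled (11824 genes). Spreads were drawn from limma's own fitted prior. Changes were added on the log2(FPKM + 1) scale, in genes above about 5 FPKM alone. There it recovered 40.3% of 1.5-fold changes, 98.5% of 2-fold and 100% of 4-fold changes. These rates rest on the model that the test assumes, and they do not cover lower genes such as Nfatc1, Lmcd1 and Egr2.

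Members and lists were chosen with earlier results of these data known, and 1 list is not reported here. Named genes were the members, Mef2a and, per list, every called gene and up to 4 more with the smallest p. For likeness to Rcan1, the 5 nearest genes were named. Alternatives were other pseudocounts, filters, scalings, priors, a replicate block, coding transcripts alone and leaving out each library.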

Additional observations from a re-analysis of the deposited data

How the results depend on the processing

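Over the 15 alternatives to the gene-level limma fit, the number of members called stayed at 0 higher and 0 lower, except that 1 (Ppp3ca) was called higher without scrambled replicate 2, so that leaving out each library in turn gave 0 to 1 higher. Ppp3ca, Ppp3cb and Ppp3r1 kept a positive difference in every alternative run, from 0.13 to 0.66, 0.095 to 0.22 and 0.021 to 0.25. The differences near 0 changed sign. Rcan1 was at -0.0079 with median-ratio scaling and -0.0097 with quantile normalization, and Nfatc1 at -0.012 with median-ratio and -0.0017 with upper-quartile scaling. With a library left out, Rcan1 ran from -0.10 to 0.18, Nfatc1 from -0.096 to 0.15, Nfatc3 (and its single transcript) from -0.096 to 0.31, the internal form of Rcan1 from -0.64 to 0.28, its distal form from -0.24 to 0.72, the Ppp3cb form without the cassette exon from -0.025 to 0.25 and its retained-intron transcript from -0.33 to 0.030. No transcript of a member was called under the 14 alternatives at the transcript level, but without a filter and with the replicate block 0 transcripts of any gene were called, so those 2 say nothing about the members.

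Over all genes, 48 were called higher and 156 lower (76.5% lower). The higher count was 28 with a pseudocount of 0.1, 29 without a filter, 24 without a trend, 73 with robust moderation, 23 with small RNA symbols kept and 76 with coding transcripts alone. Scaling gave 13 higher and 131 lower for median ratios (91.0% lower), 14 and 131 for upper quartiles (90.3%) and 11 and 107 for quantiles (90.7%). A minimum mean of 5 FPKM, which tests fewer genes, gave 99 lower. Leaving out each library in turn gave 41 to 75 higher and 136 to 159 lower, with 75 higher without scrambled replicate 2. Except where fewer genes were tested, the cause was not tested. A group left with 1 library is assumed to vary like the other. With the replicate block 217 genes were higher and 291 lower, 6 pathway genes were higher in place of 2, and no member passed (Ppp3ca limma adjusted p = 0.0579). Replicate numbers come from the titles, differ from those in the file columns and are not said to pair libraries, and over genes replicate 1 minus 2 correlated between the groups at r = 0.292, where genes are not independent. Depth is unknown. In the simulated libraries with 2 per group, 40.3% of 1.5-fold changes were recovered, so a change of that size can be missed. Those changes lay in genes above about 5 FPKM, and recovery in lower genes was not simulated.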
